A study of Mus musculus with 6 samples.

Results

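The solute carriers (SLC genes) of the plasma membrane and of organelles that were expressed in mouse morulae were examined here. They are 79 of the 55364 genes in the table, and 50 of them shared no exonic sequence with another annotated gene. The members were chosen by their symbol and by their level. Of 378 genes with a symbol of the Slc series, 51 were left out by name (the mitochondrial Slc25a genes, *Slc2a1*, *Slc2a3*, *Slc22a18* and *Slc38a4*), and of the remaining 327 those with a mean of at least 5 TPM over all 6 libraries were kept. In TPM, read pairs per base of exon are scaled to a sum of 1000000 over the genes of a library, and levels of different genes can thus be set side by side. Of the others, 71 had a mean between 1 and 5 TPM and 177 a mean under 1 TPM, 16 of which were listed at 0 in every library. Just inside the threshold were *Slc35b4* (5.49 TPM) and *Slc16a5* (5.62 TPM), and just outside it *Slc4a2* (4.88 TPM), *Slc30a2* (4.86 TPM) and *Slc38a10* (4.62 TPM).

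The embryos were of the BDF1 x BDF1 cross, obtained by in vitro fertilization and cultured in KSOM, and zygotes were injected with a control siRNA (control KD) or with an siRNA against *Yy1*, the gene of a zinc finger transcription factor (*Yy1* KD). Each group had 3 libraries of total RNA, each from a pool of 10 morulae, so that a replicate is a pool and not an embryo. The study asked whether embryos that lack YY1 express genes differently at the morula stage. *Yy1* itself went from 95.3 ± 5.26 TPM with the control siRNA to 8.65 ± 0.298 TPM with its own siRNA (n = 3, SD), 9.07% of the control mean. Read pairs on genes, recovered from TPM and exon length, were between 11793509 and 24417789 per library. Of 12 genes of the early embryo, 11 passed the filter on low values, among them *Pou5f1* (692 TPM on average) and *Cdx2* (61 TPM), and the exception was *Zscan4c* (0.247 TPM), which is known from an earlier stage. Of these 11, 9 had a lower mean in *Yy1* KD libraries, and limma called *Tfap2c* (log2 fold change -0.54). *Sox2* had a log2 fold change of -0.86 without overlap between the groups and *Cdh1* one of -0.80, and limma called neither. Among 12 markers of cumulus and granulosa cells, *Has2*, *Ptx3*, *Cyp19a1*, *Tnfaip6* and *Fshr* were listed at 0 in every library. The 2 highest were *Amhr2*, at 8.91 ± 0.979 TPM in the control and 8.09 ± 0.819 TPM in the knockdown group, and *Pdgfra*, at 6.92 ± 2.17 TPM in the control and 3.31 ± 0.943 TPM in the knockdown group (n = 3, SD) without overlap between the groups. The sum of the 12 was between 14.4 and 21.1 TPM in control KD and between 13 and 14.5 TPM in *Yy1* KD libraries. Whether transcripts of *Amhr2* and *Pdgfra* came from such cells or from the embryos was not tested. The sum of 4 Y-linked genes was between 24.5 and 40.8 TPM in control KD and between 7.82 and 11.2 TPM in *Yy1* KD libraries, and *Ddx3y* was called lower (log2 fold change -2.02). The genes differed, with *Yy1* KD means at 20.7% of the control KD mean for *Ddx3y*, 21.7% for *Uty*, 64.3% for *Eif2s3y* and 66.5% for *Kdm5d*. In *Eif2s3y* and *Kdm5d* the groups overlapped. The part of these sums in the results was not tested. In pools of whole embryos, fewer cells of a type and less RNA per cell cannot be told apart.

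Solute carriers are membrane proteins that move nutrients, ions, metals and metabolites across membranes. Most are driven by gradients that pumps maintain, such as the sodium gradient across the plasma membrane and the proton gradient made by the vacuolar ATPase, and some need an escort protein to reach the membrane. Before implantation the embryo depends on such carriers for amino acids, pyruvate and lactate, nucleosides, vitamins and osmolytes, and ion carriers take part in the control of cell volume and of fluid transport. The members were grouped by substrate as assigned from their symbols, so that the substrate of a single member was not examined. There were 14 carriers of metals, 13 of the Slc35 family of nucleotide sugar carriers, 11 of inorganic ions, 8 of amino acids, 7 of organic acids, 6 of vitamins and cofactors, 5 of sugars, 5 of osmolytes, choline and other organic ions, 3 of nucleosides and nucleobases, 1 of fatty acids and 2 with no assigned substrate. The remaining 4 symbols do not name carriers. *Slc9a3r1* and *Slc9a3r2* encode scaffold proteins that bind carriers, and *Slc4a1ap* and *Slc7a6os* are named after a carrier that the protein binds or a gene that lies nearby. These 4 were kept, as the rule takes symbols, and are reported apart.

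The levels ranged over more than a factor of 20. Means of at least 100 TPM were reached by 4 members, 8 lay between 50 and 100 TPM, 32 between 20 and 50 TPM and 35 between 5 and 20 TPM, with a median of 22.7 TPM. The highest mean was that of *Slc5a6*, the sodium-dependent carrier of biotin and pantothenate (148 TPM). It was followed by *Slc6a8*, the creatine carrier (146 TPM), *Slc12a2*, the Na-K-Cl cotransporter NKCC1 (144 TPM), and *Slc3a2*, the heavy chain that escorts amino acid exchangers such as LAT1 to the membrane (123 TPM). The order of these 4 was not resolved, since their values over the 6 libraries overlapped. They ran from 99.2 to 196 TPM for *Slc5a6*, from 120.3 to 178 TPM for *Slc6a8*, from 85.9 to 193 TPM for *Slc12a2* and from 88.6 to 161 TPM for *Slc3a2*. Next came *Slc43a3*, a purine nucleobase carrier (82.2 TPM), *Slc22a13b* (72.9 TPM) and *Slc39a1*, a zinc importer of the plasma membrane (65.5 TPM). These were followed by *Slc34a2*, a sodium-phosphate cotransporter (62.7 TPM), *Slc49a4* (61.9 TPM) and *Slc24a5* (58.4 TPM). The annotation (GENCODE vM21, GRCm38) lists *Slc22a13b* as a polymorphic pseudogene and the other 78 members as protein coding. *Slc24a5* shares 39.5% of its exonic sequence with *Myef2*, and read pairs there were divided between both genes.

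Most solute carrier transcripts had a lower mean after *Yy1* KD, and the share called lower was above that of all genes. With limma on log2(TPM + 1), a model fitted over 17353 genes with Benjamini-Hochberg adjustment, 14 of the 79 members (17.7%) were called lower at an adjusted p under 0.05 and 0 were called higher. The background was 4.20% lower and 1.92% higher among all genes tested, and 5.92% lower and 2.55% higher among the 10669 genes tested at a mean of at least 5 TPM, the level that the members were chosen on. Among the protein-coding genes at this level it was 7.06% lower and 2.52% higher. All 79 members passed the filter of at least 1 TPM in at least 3 libraries. In both directions together, 65 members had a lower and 14 a higher mean on this scale. A lower mean was found in 52.8% of all genes tested and in 56.3% of the protein-coding genes at a mean of at least 5 TPM. The median log2 fold change of the members was -0.35, beside -0.02 over all genes tested, -0.04 over the genes at a mean of at least 5 TPM and -0.05 over the protein-coding genes among these. The 3 control KD values and the 3 *Yy1* KD values did not overlap in 31 members that were lower and in 3 that were higher. The background for this was 17.2% lower and 12.9% higher among all genes tested, and 21.1% lower and 14.7% higher among those at a mean of at least 5 TPM. For each single member without overlap the two-sided exact permutation test over the 6 libraries gave p = 0.1, the smallest that 3 libraries against 3 allow. Unless limma-voom is named, called refers to this limma fit. At an unadjusted p under 0.05 in it, 28 members were lower and 3 higher, against 14.4% and 9.35% of all genes tested and 18.6% and 11.4% of those at a mean of at least 5 TPM. limma-voom on the recovered read pairs called 22 members lower and 3 higher, against 7.63% and 4.88% of all genes tested and 10.4% and 6.35% of those at a mean of at least 5 TPM. Beyond the 14, it called 8 members lower, namely *Slc12a7*, *Slc7a6*, *Slc8b1*, *Slc38a7*, *Slc16a13*, *Slc27a4*, *Slc23a2* and *Slc39a2* (limma-voom adjusted p from 0.0263 to 0.0486). The 3 that it called higher were *Slc35e3*, *Slc19a3* and *Slc20a1* (limma-voom adjusted p from 0.018 to 0.04997).

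**Figure D1:**
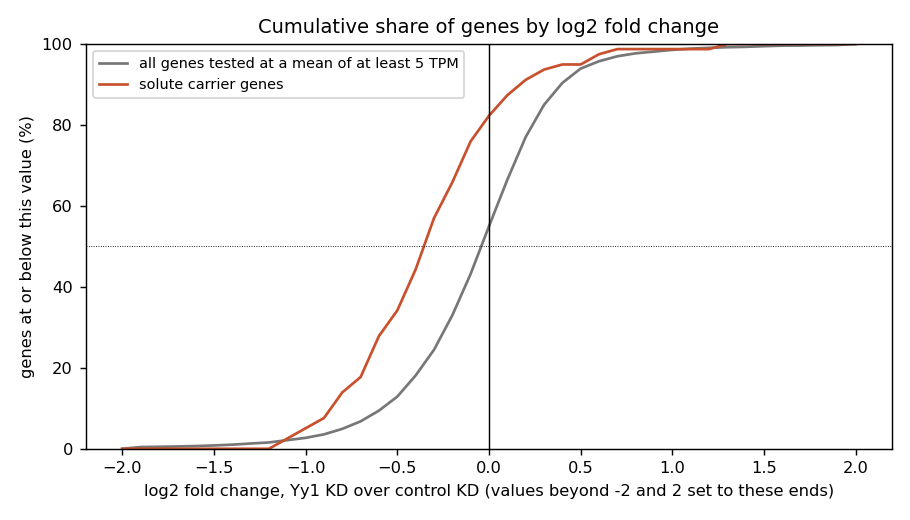
The horizontal axis is the log2 fold change of *Yy1* KD over control KD on log2(TPM + 1), and the vertical axis the cumulative share of genes in percent, for the 79 members (red) and for all genes tested at a mean of at least 5 TPM (grey). The curve of the members lies to the left, with a median of -0.35 against -0.04.

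The number of calls rested on having all 6 libraries. The count of members called lower was 0, 2 and 0 without control KD replicate 1, 2 and 3, and 4, 0 and 6 without *Yy1* KD replicate 1, 2 and 3. All genes called lower in the same 6 fits were 88, 151, 53, 326, 168 and 314. The direction did not rest on 1 library in the same way, since between 62 and 68 of the 79 members were lower in these fits and their median log2 fold change was between -0.47 and -0.27.

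The members also moved together among libraries of the same group. Control KD replicate 2 had the lowest of the 3 control values in 60 of 79 members (75.9%), against 36.3% of the genes tested at a mean of at least 5 TPM. *Yy1* KD replicate 3 had the highest of the 3 *Yy1* KD values in 56 members (70.9%), against 36.9% of those genes. The 79 values summed to 2831, 2285 and 2969 TPM in control KD replicates 1 to 3 and to 1906, 1946 and 2451 TPM in *Yy1* KD replicates 1 to 3. The groups thus overlapped in the sum, as *Yy1* KD replicate 3 lay above control KD replicate 2. Members are therefore not independent of each other, and their number is no number of replicates. Control KD replicate 2 was the library with the most recovered read pairs and *Yy1* KD replicate 3 the one with the fewest, 24417789 and 11793509. The part of depth in this pattern was not tested.

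**Figure D2:**
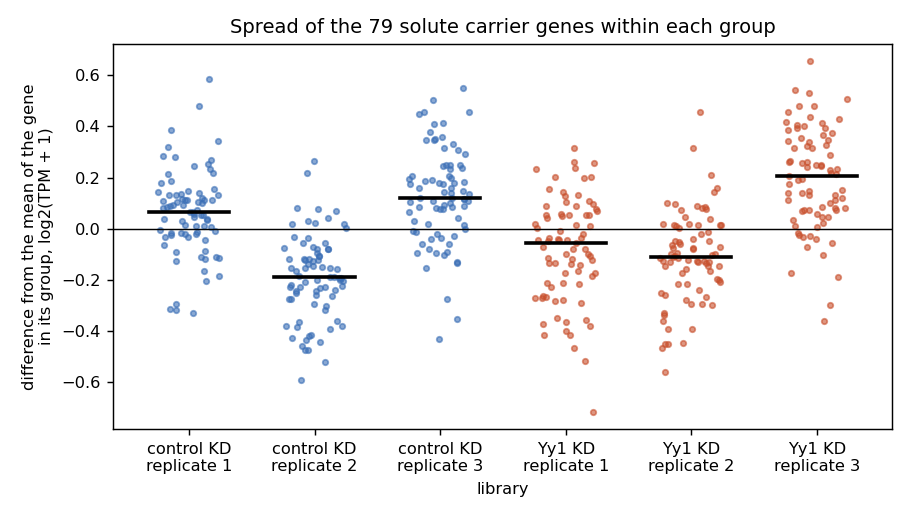
Each point is 1 of the 79 members in 1 library, the vertical axis gives its difference from the mean of that gene in its own group on log2(TPM + 1), and black lines are medians. The medians were 0.07, -0.19 and 0.12 in control KD replicates 1 to 3 and -0.05, -0.11 and 0.20 in *Yy1* KD replicates 1 to 3.

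The 14 members called lower went to between 37.6% and 66.2% of the control KD mean and came from 9 of the substrate classes. In all 14 the values of both groups did not overlap. They lie on 10 chromosomes. Of these, 11 shared no exonic sequence with another gene, and the other 3, *Slc30a1*, *Slc12a4* and *Slc44a1*, shared at most 8.92% of theirs. Control KD replicate 2 was the lowest control library in 12 of the 14, and *Yy1* KD replicate 3 the highest knockdown library in 12, as in the members at large. *Slc17a5*, *Slc12a4*, *Slc26a11* and *Slc6a15* had *Yy1* KD means under 5 TPM and were thus members through their control KD values. The same held for *Slc23a2* and *Slc39a2*, which limma-voom alone called lower. In what follows, 3 values for control KD replicates 1, 2 and 3 are given first, and then 3 values for *Yy1* KD replicates 1, 2 and 3.

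**Figure D3:**
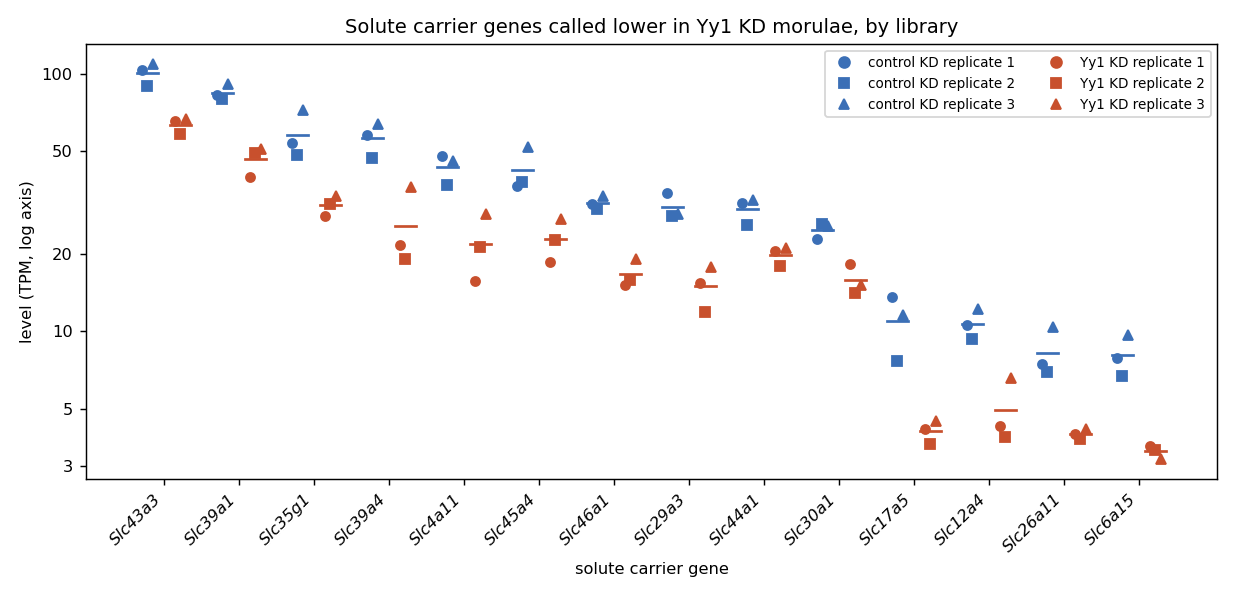
The vertical axis is the level in TPM on a log axis for each of the 14 called members, with control KD libraries in blue, *Yy1* KD libraries in red, a symbol shape for each replicate number and a short line at each group mean. In every gene shown the lowest blue point lies above the highest red point.

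Since the factor knocked down binds DNA, the promoters of the members were searched for the YY1 consensus. RefSeq promoter sequences (GRCm38.p6) from 250 bases before to 50 bases after the start site were present for 57 of the 79 members and for 8 of the 14 that were called. *Slc43a3*, *Slc39a4*, *Slc4a11*, *Slc45a4*, *Slc26a11* and *Slc6a15* had no entry. The motif GCCATNTT, or AANATGGC on the other strand, was present in 6 of the 57 members (10.5%), in 1 of the 8 called members and in 5 of the 49 that were not called. It was present in 10.4% of 9780 tested genes with an entry and in 11.9% of the 6696 among them at a mean of at least 5 TPM. The share was 27.7% of 517 genes called lower and 6.05% of all 32851 promoter windows of this length. The sites below are the 7 found, shown as 30 bases in the direction of the gene with the motif in capitals, in the order of the log2 fold change. A match is a description of the letters and not a binding site, and no match says only that these letters were not in the window.
Slc17a5: tgcccgaaactAAAATGGCgccttaggaac
Slc23a2: ccctccgcggcGCCATTTTgcaggcggctg
Slc5a6: cgcccttagtaAACATGGCggcgctgggac
Slc7a6os: ccactcccgcgGCCATTTTgcctctcccac
Slc39a7: ctcggggcgccGCCATGTTggtaaaggtat
Slc39a7: ccggcgcggccGCCATCTTtgtacagacgg
Slc39a9: gcctttctaaaAAAATGGCggcaatataag
The called gene, *Slc17a5*, is on the minus strand. The printed stretch is chr9:78588100-78588129, and the motif in it begins at position -73 from the start site, where -1 is the base before the start. The stretches of *Slc23a2* (chr2:132145094-132145123), *Slc5a6* (chr5:31048298-31048327), *Slc7a6os* (chr8:106211026-106211055) and *Slc39a7* (chr17:34031647-34031676 and chr17:34031806-34031835) were also on genes of the minus strand, and that of *Slc39a9* (chr12:80644118-80644147) was on a gene of the plus strand. limma called none of these 5 genes, with log2 fold changes between -0.77 and -0.19.

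All 3 carriers of nucleosides and nucleobases were lower without overlap between the groups, and limma called 2 of them (class median -0.67). Of the genes tested at a mean of at least 5 TPM, 55.0% were lower, 21.1% lower without overlap and 5.92% called lower. The same shares apply to the class counts below. *Slc29a3* (chr10:60712072-60752794, minus strand), the equilibrative nucleoside transporter of lysosomes, was at 34.6, 28.1 and 28.6 TPM in control KD libraries and at 15.5, 11.9 and 17.7 TPM in *Yy1* KD libraries. Every knockdown library was thus well under the lowest control. The log2 fold change was -0.98 with a standard error of 0.16, and limma gave an adjusted p = 0.0257. *Slc43a3* (chr2:84936579-84958509, plus strand), which takes up purine nucleobases and was the highest of the class, was at 103, 89.9 and 109 TPM and at 65.3, 58.5 and 66.8 TPM. Limma gave a log2 fold change of -0.66 with a standard error of 0.10 (adjusted p = 0.0204). *Slc28a3*, a concentrative nucleoside carrier, was at 12.6, 13.4 and 23.8 TPM and at 10.1, 7.11 and 12.5 TPM and was not called (log2 fold change of -0.67, adjusted p = 0.22 by limma), with control KD replicate 3 far above the other controls.

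Of the 6 carriers of vitamins and cofactors, 1 was called lower and 0 were called higher by limma. Among genes tested at a mean of at least 5 TPM these shares were 5.92% and 2.55%. *Slc46a1* (chr11:78465697-78472059, plus strand), the proton-coupled folate transporter, had the smallest adjusted p of all members. It was at 31.2, 29.97 and 33.5 TPM in control KD libraries and at 15.2, 15.8 and 19.1 TPM in *Yy1* KD libraries, a change of the mean from 31.6 ± 1.82 to 16.7 ± 2.12 TPM (n = 3, SD, log2 fold change -0.89 with a standard error of 0.12, adjusted p = 0.0135 by limma). *Slc19a3*, a thiamine carrier, had the highest log2 fold change of the members, at 15.9, 9.54 and 9.05 TPM in control KD libraries and at 16.4, 38.2 and 33.2 TPM in *Yy1* KD libraries. The groups were barely apart, since *Yy1* KD replicate 1 lay next to control KD replicate 1, and the gene was not called. On the log2 scale the difference was 1.23 with a standard error of 0.35 (limma adjusted p = 0.0894). Without *Yy1* KD replicate 1 it was called higher (adjusted p = 0.0448 by limma), the 1 member for which a fit that left out a library did so. The related thiamine carrier *Slc19a2* was at 24.4, 14.2 and 11.6 TPM and 27.5, 18.2 and 25 TPM, with groups that overlapped (log2 fold change of 0.52, adjusted p = 0.322 by limma). *Slc5a6*, the most abundant member, was at 196, 125 and 169.9 TPM and 99.2, 131 and 167 TPM, also with overlap (log2 fold change of -0.31, adjusted p = 0.46 by limma). *Slc23a2*, which takes up ascorbate, was lower without overlap but not called (log2 fold change of -0.77, adjusted p = 0.13 by limma). *Slc33a1*, the acetyl-CoA carrier of the endoplasmic reticulum, was at 7.92 ± 2.6 TPM in the control and 7.71 ± 0.865 TPM in the knockdown group (n = 3, SD). The class median was -0.16.

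Zinc carriers made up 11 of the 14 members in the class of metals, and the 3 called genes of the class were all zinc carriers of the plasma membrane. In background knowledge, carriers of the Slc39 (ZIP) family bring zinc into the cytosol and those of the Slc30 (ZnT) family remove it, to the outside or into organelles. *Slc39a1* (chr3:90248172-90253612, plus strand), which encodes ZIP1, was at 82.4, 79.8 and 91 TPM in control KD libraries and at 39.8, 49.1 and 51.1 TPM in *Yy1* KD libraries. This corresponds to a log2 fold change of -0.85 with a standard error of 0.12 (adjusted p = 0.0145 by limma). *Slc39a4* (chr15:76612383-76617384, minus strand), the ZIP4 importer whose loss in humans causes zinc deficiency, was at 57.8, 46.9 and 63.6 TPM and at 21.6, 19 and 36.4 TPM, where *Yy1* KD replicate 3 stood above the other knockdown libraries. Its fitted log2 fold change was -1.14, its standard error 0.24 and its limma adjusted p = 0.0458. *Slc30a1* (chr1:191906767-191913247, plus strand), the exporter ZnT1, was at 22.9, 26 and 25.6 TPM and at 18.2, 14.1 and 15.1 TPM. The log2 fold change was -0.63 with a standard error of 0.13, and limma gave an adjusted p = 0.0405. Importers and an exporter were thus lower together.

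limma called none of the other carriers of metals, while limma-voom also called *Slc39a2*. *Slc39a2* went from 7.5 ± 0.944 to 4.24 ± 0.964 TPM (n = 3, SD) and missed the threshold (log2 fold change of -0.71, adjusted p = 0.0833 by limma). *Slc39a7*, the ZIP7 carrier of the endoplasmic reticulum and Golgi, was at 20.4 ± 2.68 TPM in the control and 17.1 ± 0.327 TPM in the knockdown group, *Slc30a5* at 15.6 ± 2.15 TPM in the control and 13.7 ± 1.48 TPM in the knockdown group and *Slc30a4* at 30.5 ± 3.26 TPM in the control and 31.5 ± 5.01 TPM in the knockdown group (n = 3, SD), and none of these 3 was called. *Slc39a10* had a higher mean in *Yy1* KD morulae (log2 fold change of 0.36, adjusted p = 0.367 by limma). *Slc11a2*, the iron carrier DMT1, was at 35.1, 26.9 and 35.9 TPM and 19.4, 20.8 and 28.7 TPM with overlap (log2 fold change of -0.50, adjusted p = 0.156 by limma). *Slc31a1*, the copper importer CTR1, was at 9.33 ± 2.39 TPM in the control and 10.01 ± 1.11 TPM in the knockdown group (log2 fold change of 0.11, adjusted p = 0.779 by limma). *Slc49a4*, a lysosomal member of its family, was placed in this class by its symbol, and whether it carries a metal was not examined. The second most abundant of the class after *Slc39a1*, it had a log2 fold change of -0.16 (limma adjusted p = 0.534). *Slc39a6* and *Slc30a6* had log2 fold changes of -0.51 and -0.48, the latter without overlap, and were not called. *Slc39a9* had one of -0.19. Over the class, 11 of 14 were lower and 6 of these were without overlap, and the median was -0.35. Among genes tested at a mean of at least 5 TPM, 55.0% were lower and 21.1% were lower without overlap.

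Genes that bind or sense metals were listed beside the carriers of metals. The metallothioneins, small proteins that hold zinc and whose transcription follows zinc in the cell, were at 721, 892 and 616 TPM in control KD libraries and at 716, 798 and 719.8 TPM in *Yy1* KD libraries for *Mt1* (log2 fold change of 0.02, adjusted p = 0.956 by limma). The level was 275 ± 56 TPM in the control and 272 ± 10.9 TPM in the knockdown group for *Mt2* (n = 3, SD, log2 fold change of 0.01, adjusted p = 0.98 by limma). Their inducer *Mtf1* was at 25.7 ± 0.9003 TPM in the control and 24.7 ± 1.86 TPM in the knockdown group (log2 fold change of -0.06, adjusted p = 0.777 by limma). Of a list of 16 genes of zinc, copper and iron handling, 15 were tested, with a median log2 fold change of -0.02. Of these 15, 1 was called lower and 1 higher, against 4.20% and 1.92% of all genes tested. The lower gene was *Steap3*, a ferric reductase of endosomes (30.2, 36.1 and 40.1 TPM and 13.2, 15.8 and 20.2 TPM, log2 fold change -1.08 with a standard error of 0.18, adjusted p = 0.0248 by limma). The higher one was *Hmox1*, the inducible haem oxygenase (18.1, 25.9 and 25.6 TPM and 34.1, 51.6 and 48.9 TPM, log2 fold change 0.92 with a standard error of 0.20, adjusted p = 0.0492 by limma). The transferrin receptor gene *Tfrc* was not called (log2 fold change of -0.14, adjusted p = 0.749 by limma).

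Carriers of inorganic ions were lower in 10 of 11 members, 7 of them without overlap between the groups, and 3 were called (class median -0.44). The shares of the genes tested at a mean of at least 5 TPM were 55.0% lower, 21.1% lower without overlap and 5.92% called lower. *Slc12a4* (chr8:105943590-105966097, minus strand), the potassium-chloride cotransporter KCC1, which takes part in the control of cell volume, was at 10.6, 9.38 and 12.2 TPM in control KD libraries and at 4.3, 3.89 and 6.6 TPM in *Yy1* KD libraries. Limma gave a log2 fold change of -1.001 with a standard error of 0.21 (adjusted p = 0.0444). It shares 8.44% of its exonic sequence with *Gm16156*. *Slc4a11* (chr2:130684113-130697519, minus strand), a plasma membrane protein of the bicarbonate carrier family, was at 47.9, 37 and 45.8 TPM and at 15.7, 21.3 and 28.6 TPM. On the log2 scale the difference was -0.99 with a standard error of 0.22 (limma adjusted p = 0.0477). In the latter gene the knockdown libraries were spread widely, with *Yy1* KD replicate 3 the highest. *Slc26a11* (chr11:119355557-119381079, plus strand), an anion exchanger, was at 7.44, 6.95 and 10.4 TPM and at 4.01, 3.83 and 4.17 TPM. This corresponds to a log2 fold change of -0.87 with a standard error of 0.19 (adjusted p = 0.0456 by limma).

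Other cotransporters of the Slc12 family also had lower means and were not called by limma, while limma-voom called *Slc12a7*. *Slc12a2* (NKCC1) was at 193, 117 and 186 TPM in control KD libraries and at 85.9, 125 and 157 TPM in *Yy1* KD libraries, and the groups overlapped (log2 fold change of -0.44, adjusted p = 0.381 by limma). *Slc12a7* (KCC4) was at 67.8, 41.7 and 65.6 TPM and 31.9, 28.4 and 48.1 TPM, with 1 knockdown library above the lowest control (log2 fold change of -0.68, adjusted p = 0.162 by limma). *Slc8b1*, the sodium-calcium exchanger of mitochondria, went from 28.2 ± 3.36 to 18.2 ± 5.61 TPM (n = 3, SD, log2 fold change of -0.64, adjusted p = 0.139 by limma). *Slc34a2* was at 79.8, 52.4 and 77.7 TPM and 43.5, 45 and 77.5 TPM (log2 fold change of -0.36, adjusted p = 0.457 by limma). The 1 member of the class with a higher mean was *Slc20a1*, a sodium-phosphate cotransporter, at 21.4, 14 and 26.1 TPM and 24.9, 34.4 and 38.7 TPM. The groups overlapped in it and limma did not call it. Its fitted log2 fold change was 0.67, its standard error 0.25 and its limma adjusted p = 0.168. limma-voom called it higher (adjusted p = 0.04997). The difference between both phosphate carriers was not tested. *Slc24a5* was at 63.7, 67.2 and 64.9 TPM and 63.5, 46.4 and 44.5 TPM (log2 fold change of -0.35, adjusted p = 0.185 by limma), without overlap, and it was called lower in the fit without *Yy1* KD replicate 1.

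All 8 members that carry amino acids or peptides, or escort such carriers, had a negative log2 fold change, and 1 of them was called (class median -0.44). *Slc6a15* (chr10:103367783-103419377, plus strand), a sodium-dependent carrier of branched-chain amino acids and proline, was at 7.9, 6.68 and 9.66 TPM in control KD libraries and at 3.6, 3.47 and 3.2 TPM in *Yy1* KD libraries. The log2 fold change was -1.03 with a standard error of 0.18, and limma gave an adjusted p = 0.0286. Its 3 knockdown libraries were nearly alike. *Slc3a2*, the heavy chain, was at 139, 109.9 and 161 TPM and at 99.2, 88.6 and 139 TPM, with overlap (log2 fold change of -0.34, adjusted p = 0.366 by limma). Its light chains *Slc7a5* (LAT1) and *Slc7a6* (y+LAT2) had log2 fold changes of -0.23 and -0.64, and limma called neither. limma-voom called *Slc7a6*, which was without overlap, at 32.4, 28.4 and 37.3 TPM and 22.5, 15.4 and 24.8 TPM. *Slc1a1*, the glutamate and aspartate carrier EAAC1, was the second most abundant of the class, at 59.3, 37.9 and 73.1 TPM and 33, 33.1 and 46.6 TPM (log2 fold change of -0.55, adjusted p = 0.249 by limma). *Slc38a7*, which exports glutamine from lysosomes, went from 18.2 ± 2.52 to 12.2 ± 2.29 TPM (n = 3, SD, log2 fold change of -0.55, adjusted p = 0.111 by limma). *Slc15a4* and *Slc6a14* had log2 fold changes of -0.18 and -0.01.

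Of 9 amino acid carriers or escorts known as targets of ATF4, the factor that raises such genes when amino acids are scarce, 5 were tested and 0 were called in either direction by limma, with a median log2 fold change of -0.34. All 5 had a negative log2 fold change. Without adjustment 0 were lower and 0 higher at a p under 0.05, against 0 called lower and 0 called higher by limma-voom. The shares of all genes tested in these 4 counts were 14.4%, 9.35%, 7.63% and 4.88%, in that order. *Slc7a11*, the cystine carrier, was at 0.465 ± 0.0304 TPM in the control and 0.646 ± 0.163 TPM in the knockdown group and *Slc7a3* at 0.0321 and 0.0228 TPM. Both were under the filter on low values and were not tested. Among the untested genes of this list, *Slc7a11* was higher and another gene lower, each without overlap. In the machinery by which lysosomal amino acids act on mTORC1, 14 of 15 listed genes were tested and 0 were called, 6 being lower and 8 higher (median 0.07). At an unadjusted p under 0.05 0 were lower and 4 higher, and limma-voom called 0 lower and 3 higher. The same shares of all genes apply.

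Among carriers of organic acids, *Slc17a5* (chr9:78536488-78588041, minus strand), which encodes sialin and exports sialic acid from lysosomes, had the lowest log2 fold change of all members. It was at 13.6, 7.69 and 11.6 TPM in control KD libraries and at 4.17, 3.66 and 4.51 TPM in *Yy1* KD libraries (log2 fold change -1.20 with a standard error of 0.22, adjusted p = 0.0322 by limma), and its controls spread more than its knockdown libraries. Its *Yy1* KD mean of 4.11 TPM was under the 5 TPM that members were chosen on. *Slc16a1*, the monocarboxylate carrier MCT1 for lactate and pyruvate, was at 23.2, 26.3 and 38.5 TPM and at 19.1, 11.7 and 24.7 TPM, and the groups overlapped (log2 fold change of -0.66, adjusted p = 0.23 by limma). *Slc16a6* (MCT7), the most abundant of the class, was at 54.5, 39.6 and 56.6 TPM and 29.1, 35.8 and 55.4 TPM (log2 fold change of -0.35, adjusted p = 0.445 by limma). *Slc16a13* was the member closest above the threshold of the test, with 14.9, 14.5 and 13.2 TPM and 8.31, 8.41 and 10.7 TPM and no overlap. Limma gave a log2 fold change of -0.59 with a standard error of 0.14 (adjusted p = 0.0593). *Slc13a2*, *Slc16a5* and *Slc10a6* had log2 fold changes of -0.30, -0.46 and 0.07 and were not called. The class median was -0.46, and 6 of 7 were lower.

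*Bsg*, which encodes basigin, the escort that MCT1 needs to reach the plasma membrane, fell from 243 ± 42.1 to 126 ± 9.51 TPM (n = 3, SD). Its libraries were at 259, 196 and 276 TPM and 133, 115 and 130.1 TPM. On the log2 scale the difference was -0.93 with a standard error of 0.14 (limma adjusted p = 0.0188). *Emb*, the escort of a related monocarboxylate carrier, was at 1.19 ± 0.266 TPM in the control and 1.78 ± 0.436 TPM in the knockdown group and was not called (log2 fold change of 0.34, adjusted p = 0.447 by limma). Of 11 listed escorts and pumps, 9 were tested and *Bsg* was the 1 that was called. Among all genes tested, 4.20% were called lower and 1.92% higher. *Atp1b1* and *Atp1b3*, which encode accessory subunits of the sodium pump, had log2 fold changes of -0.51 and -0.06 and were not called.

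In the class of sugars, *Slc45a4* (chr15:73577424-73645762, minus strand), of a family of proton-coupled sugar carriers, was at 36.5, 38.1 and 51.8 TPM in control KD libraries and at 18.5, 22.7 and 27.2 TPM in *Yy1* KD libraries. This corresponds to a log2 fold change of -0.86 with a standard error of 0.18 (adjusted p = 0.0465 by limma). The most abundant member, *Slc5a11*, a sodium-coupled carrier of myo-inositol, was at 56, 41.8 and 78.3 TPM and 43.6, 26.4 and 43.4 TPM, with groups that overlapped (log2 fold change of -0.61, adjusted p = 0.237 by limma). *Slc2a8*, the intracellular glucose carrier GLUT8, was at 25.8, 25.6 and 33 TPM and 19.5, 18.2 and 24.7 TPM, apart by a narrow gap (log2 fold change of -0.42, adjusted p = 0.166 by limma). *Slc45a3* and *Slc37a3* had log2 fold changes of -0.19 and 0.06 and were not called. The class median was -0.42.

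The Slc35 family, most of whose studied members carry nucleotide sugars into the Golgi and endoplasmic reticulum, had a median log2 fold change of -0.22 over 13 members, 10 lower and 3 higher. The 1 called member was *Slc35g1* (chr19:38395980-38405610, plus strand), at 53.7, 48.2 and 72.3 TPM in control KD libraries and at 28, 31.2 and 33.6 TPM in *Yy1* KD libraries, with control KD replicate 3 above the other controls. Its fitted log2 fold change was -0.87, its standard error 0.16 and its limma adjusted p = 0.0318. *Slc35f2*, the most abundant of the family, was at 64.9, 48.7 and 81.5 TPM and 45.6, 48.9 and 47.8 TPM, and the groups overlapped by a narrow margin (log2 fold change of -0.42, adjusted p = 0.214 by limma). *Slc35e3* was higher in *Yy1* KD morulae without overlap, at 13.9, 9.72 and 10.9 TPM and 20.5, 16.6 and 16.4 TPM, but was not called. The log2 fold change was 0.60 with a standard error of 0.17, and limma gave an adjusted p = 0.0871. Carriers with a known role in glycosylation, sulfation or ATP supply were not called. *Slc35a3*, for UDP-N-acetylglucosamine, was at 16 ± 1.57 TPM in the control and 12.7 ± 1.32 TPM in the knockdown group, *Slc35b2*, for the sulfate donor PAPS, at 25.5 ± 2.57 TPM in the control and 21.2 ± 5.91 TPM in the knockdown group, and *Slc35b1*, which brings ATP into the endoplasmic reticulum, at 28.7 ± 8.69 TPM in the control and 25.5 ± 2.92 TPM in the knockdown group (n = 3, SD). The other 7 members of the family lay between -0.35 (*Slc35a4*, without overlap) and 0.27 (*Slc35b4*) on the log2 fold scale, with -0.32 for *Slc35f6*, -0.22 for *Slc35c2*, -0.17 for *Slc35e2*, -0.05 for *Slc35e4* and 0.09 for *Slc35e1*, and 0 of them were called.

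Carriers of osmolytes, choline and other organic ions had a median of -0.25 over 5 members. *Slc44a1* (chr4:53440413-53622478, plus strand), the choline carrier CTL1, was at 31.6, 25.8 and 32.5 TPM in control KD libraries and at 20.6, 18 and 21 TPM in *Yy1* KD libraries, the smallest change among the 14 called members. Limma gave a log2 fold change of -0.57 with a standard error of 0.13 (adjusted p = 0.0486). *Slc6a8*, the creatine carrier on the X chromosome, was at 168, 129.7 and 178 TPM and 127, 120.3 and 155 TPM (log2 fold change of -0.24, adjusted p = 0.396 by limma). *Slc6a6*, the taurine carrier, was at 62, 47.9 and 69.9 TPM and 34.3, 40.1 and 61.7 TPM (log2 fold change of -0.42, adjusted p = 0.335 by limma). In both, the groups overlapped. *Slc5a3*, which takes up myo-inositol, was at 29.3, 15.7 and 23.6 TPM and 16.9, 25.4 and 34.8 TPM (log2 fold change of 0.15, adjusted p = 0.817 by limma). *Slc22a20* had a log2 fold change of -0.25. *Slc27a4*, the fatty acid transport protein FATP4 and the only member for lipids, went from 13.5 ± 0.873 to 8.04 ± 2.41 TPM (n = 3, SD) without overlap and was not called (log2 fold change of -0.71, adjusted p = 0.107 by limma). Of the members without an assigned substrate, *Slc22a13b* was at 79.5, 74.4 and 67.2 TPM and 71.5, 66 and 79 TPM (log2 fold change of -0.03, adjusted p = 0.89 by limma). *Slc66a2* had a log2 fold change of -0.20.

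The 4 symbols that do not name carriers were not called. *Slc9a3r1* was at 34.7, 45.9 and 34.5 TPM in control KD libraries and at 40.4, 36.6 and 36.8 TPM in *Yy1* KD libraries (log2 fold change of -0.01, adjusted p = 0.985 by limma). *Slc4a1ap* had a log2 fold change of 0.14, *Slc9a3r2* of 0.28 and *Slc7a6os* of -0.27. *Slc7a6os* lies 2011 bases from *Slc7a6* on chromosome 8, 1 of 2 pairs of members within 200000 bases of each other, the other pair being *Slc46a1* and *Slc13a2*, 43480 bases apart on chromosome 11. In each pair 1 gene was lower without overlap and the other had overlapping groups. Without the 4 symbols the median log2 fold change of the members was -0.35.

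**Figure D4:**
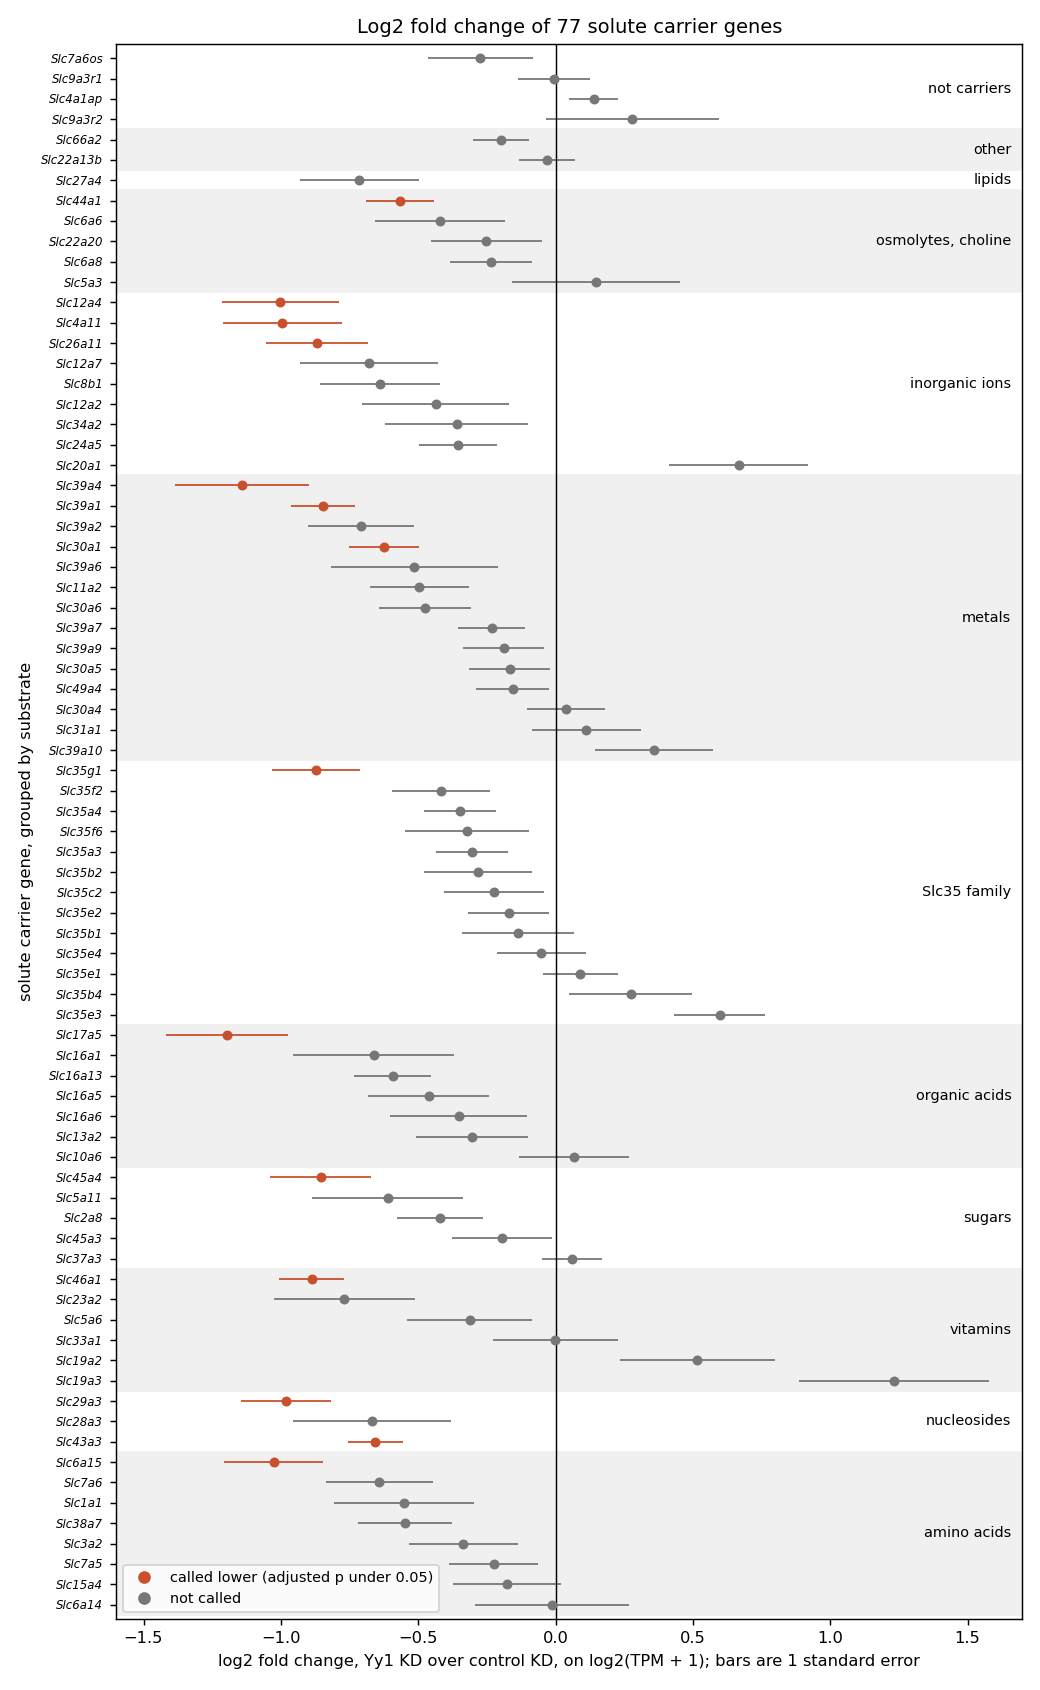
Points are the log2 fold changes of 77 members on log2(TPM + 1), grouped by substrate, with bars of 1 standard error from limma and the 14 called members in red. Points of 63 members lie left of 0, and *Slc19a3*, at 1.23, lies farthest to the right.

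Genes that make the gradients for organelle carriers, and carriers with other symbols, were compared as lists. Of 23 genes for the vacuolar proton pump and its accessory proteins, 19 were tested, 16 with a lower and 3 with a higher mean, at a median of -0.19. At an unadjusted p under 0.05 by limma, 6 were lower and 2 higher, against 14.4% and 9.35% of all genes tested. limma-voom called 3 lower and 2 higher, against 7.63% and 4.88%. From this list limma called 1 gene lower and 1 higher, against 4.20% and 1.92% of all genes tested. *Atp6v1b2* was lower (51.6, 60.1 and 47.4 TPM and 29.99, 30.4 and 29.9 TPM, log2 fold change -0.79 with a standard error of 0.11, adjusted p = 0.0135 by limma). *Atp6v1d* was higher (53, 51.9 and 51.1 TPM and 80.5, 70.2 and 74.5 TPM, log2 fold change 0.52 with a standard error of 0.08, adjusted p = 0.0207 by limma), and both are subunits of the part of the pump that lies in the cytosol. Of 27 listed solute carriers whose symbol does not begin with Slc, 23 were tested and 0 were called by limma, 12 lower and 11 higher, with a median of -0.05. Without adjustment 5 were lower and 3 higher at a p under 0.05, against 2 called lower and 2 called higher by limma-voom. Over all genes tested the shares were 14.4% and 9.35% without adjustment and 7.63% and 4.88% by limma-voom. The median of the 71 solute carriers that were tested but had a mean under 5 TPM was -0.12, and 0 of them were called. At an unadjusted p under 0.05 7 were lower and 0 higher, and limma-voom called 3 lower and 0 higher. How precisely such low genes were measured differed, with a median standard error of 0.24 against 0.19 for the members.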

How the data were processed

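RNA-seq libraries were made with the SMART-Seq Stranded kit from 3 pools per group. Adaptor bases were removed by the authors with Trim Galore 0.6.7, reads were aligned to mm10 with HISAT2 2.2.1 (versions from the submitters' processing notes), ribosomal RNA reads were removed with bedtools, and read pairs were assigned to GENCODE vM25 with featureCounts 2.0.1, without regard to strand and with pairs on several genes divided among them. The authors deposited TPM per gene and library, and TPM depends on all other genes of a library. No column of values was left unused. Genes with at least 1 TPM in at least 3 libraries (17353) were tested with limma 3.58.1 (R 4.3.3) on log2(TPM + 1) with a variance trend, because TPM does not suit the count test that the authors used. A fold change on this scale understates that of low genes. Two-sided p-values were Benjamini-Hochberg adjusted over all 17353 genes, and the threshold for a call was an adjusted p of 0.05. Standard errors are limma's, and ± is the SD over 3 libraries. Where nothing says that pools came from separate fertilizations, p-values measure the spread between these pools alone.

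On simulated libraries of 17353 genes for the comparison of *Yy1* KD with control KD, 65 of 112 genes given a log2 change of 1 and 76 of 88 given a log2 change of 2 were recovered, while 3 of 17153 left as they were passed the threshold. The changed genes were drawn only from those with a mean above the value of 5 TPM on the log2(TPM + 1) scale, so recovery of lower genes was not tested. The noise was drawn for each gene separately. These counts need not hold for genes that move together among libraries, as the members did. Gene positions, exon lengths and overlaps were taken from GENCODE vM21 (GRCm38), in which 54312 of 55364 identifiers had the same version. TPM multiplied by exon length gave read pairs up to a constant per library, and between 80.6% and 81.6% of values under 20 pairs came out whole, within 0.02 of a pair.

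The members, substrate classes and gene lists were chosen with earlier results of these data known, so the counts are a description of these genes. Genes named by rule were all called members, the 2 most abundant of each class, the 10 most abundant members, those nearest to 5 TPM, members without overlap and with an absolute log2 fold change of at least 0.8, the symbols that are not carriers and called genes of the lists. Other members were named with their values seen, and a few genes of the classes and lists enter the counts but are not reported here by name. Alternatives were a pseudocount of 0.1, other filters, median-ratio scaling, quantile normalization, other variance models, library weights, a replicate block, limma-voom, genes without exonic overlap and leaving out each library, and, added after seeing the data, a loess correction (span 0.5) for GC content and length.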

Additional observations from a re-analysis of the deposited data

How the results depend on the processing

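The count of 14 members called lower was 3 with no filter on low values, 4 without a variance trend, 5 with the replicate block and 22 with limma-voom on recovered read pairs, which also called 3 members higher in place of 0. With 1 library left out it was between 0 and 6, with 0 or 1 called higher, in fits of fewer libraries. Under the other settings it was between 10 and 15, lowest with quantile normalization, the correction for GC content and length (chosen after seeing the data) and genes without exonic overlap, which left 50 members to test. limma-voom also called the 14. The cause of the other changes was not tested.

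The labels give both groups the same replicate numbers. Deviations from the group means correlated by -0.0039, 0.032 and 0.075 for numbers 1, 2 and 3. Pairs of unequal numbers gave values between -0.071 and 0.041. Such values cannot show whether equal numbers shared a day or a fertilization, and the labels do not say. The replicate block was therefore kept as an alternative.

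The median log2 fold change of the members was between -0.47 and -0.27 over all settings, and between 60 and 68 of 79 were lower where all were tested. It was -0.28 with quantile normalization, where the median of all genes was 0.02. Downregulated genes made up 68.6% of all calls, 58.5% with quantile normalization. Of the values of single named members under these settings, 553 kept their direction or their side of the threshold, 115 lost a call, 4 gained one and 0 called values changed sign. Only values of the 14 called members could lose a call, while the 553 include members that the main fit did not call. In the fits without 1 library, between 0 and 6 of the 14 stayed called.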
